A study of Homo sapiens with 35 samples.

Results

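The genes described here are the Wnt ligands, their cell-surface receptors and the core planar polarity genes, 42 in all. They were taken by symbol: every gene of the WNT family (19 ligands), FZD1 to FZD10, the co-receptors LRP5 and LRP6, the alternative receptors ROR1, ROR2 and RYK, the polarity genes PRICKLE1, PRICKLE2, VANGL1, VANGL2, CELSR1, CELSR2 and CELSR3, and SHISA2. Of these 42 genes, 42 were among the 33539 features of the single-cell matrices and 35 among the 16103 genes of the bulk table. The 7 that have no row in the bulk table are the ligands WNT1, WNT2, WNT6, WNT7A, WNT8B, WNT10A and WNT11.

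Wnt proteins are secreted, lipid-bearing signals. Bound to a Frizzled receptor together with LRP5 or LRP6 they keep beta-catenin from being degraded, so that it acts with TCF and LEF factors in the nucleus. Bound to Frizzled with ROR1, ROR2 or RYK they act without beta-catenin, and the VANGL, PRICKLE and CELSR proteins set up planar polarity, the alignment of cells within a sheet that accompanies cell movement at gastrulation. In the embryo Wnt signals help to form the primitive streak, from which definitive endoderm and mesoderm arise. SHISA2 holds Frizzled receptors back inside the cell.

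H1 cells, a long-used line of human embryonic stem cells, were turned towards definitive endoderm in RPMI medium with 100 ng/ml Activin A (AA), a ligand of the TGF-beta family, and 3 µM CHIR99021 (CHIR), an inhibitor of GSK3 that stabilises beta-catenin without a Wnt ligand. CHIR was given on the first day. Per the labels, AA was replaced in some cultures by compounds named only BRD or JNJ, whose structures and doses are not given. The bulk groups, each of 2 libraries, were at 6 h untreated, CHIR, BRD+CHIR, JNJ+CHIR, AA+CHIR and BRD without CHIR, and at 24 h CHIR, BRD+CHIR, JNJ+CHIR, AA+CHIR and BRD without CHIR. At 72 h the cells had been sorted as definitive endoderm, and all had received CHIR on the first day: AA+CHIR followed by AA, BRD+CHIR followed by BRD, JNJ+CHIR followed by JNJ, and BRD with a low AA dose (LoAA, dose not given) and CHIR followed by BRD+LoAA. These groups of 72 h are called AA, BRD, JNJ and BRD+LoAA endoderm below. The 3 single-cell libraries were 1 of cells at 36 h and 1 of endoderm at 72 h, both labelled AA+CHIR followed by AA, and 1 of mesoderm at 72 h made with a commercial induction medium. An untreated pair at 24 h was not analysed here.

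The 30 bulk libraries held 4.57 to 49.5 M counts (M, mega). Levels are given as CPM, counts scaled to the size of each library with TMM factors over the 30 libraries, and a log2 change is the difference of 2 groups on the log2 scale from edgeR's quasi-likelihood test, with its standard error (SE) and a Benjamini-Hochberg adjusted p over all genes tested. A gene was called at an adjusted p under 0.05. Where libraries of 2 groups are said not to overlap, this describes the values behind a call and is no separate support. The share of all genes without overlap was not computed. Nothing in the labels says that the 2 libraries of a group came from separate cultures, so the p-values measure the spread between these libraries, which may be technical. In bulk RNA, fewer cells of a type and less RNA per cell cannot be told apart. The libraries fall into 3 number series, 33 for 6 h, 38 for 24 h, and 46 for 72 h and for BRD without CHIR. The transcript MTRNR2L12 took 0.166 to 0.653% of counts in the first 2 series and 6.18 to 10.8% in series 46. A difference between times therefore cannot be told apart from a difference between series, except for BRD without CHIR at 24 h against 6 h. At 6 h the summed level of 5 primitive streak genes was 7.8 to 11.6 CPM untreated, 54.8 to 57.8 CPM with CHIR and 238.1 to 243.6 CPM with AA+CHIR. At 24 h it was 1139.9 to 1198.2 CPM with CHIR and 2325.9 to 2426.4 CPM with AA+CHIR. The summed level of 5 definitive endoderm genes was 4280.6 to 4928.7 CPM in AA endoderm and 459.0 to 563.6 CPM in the 3 compound-made groups. None of the 5 genes was at 0 in any 72 h group. With AA+CHIR at 24 h the sum was 1171.2 to 1330.4 CPM, above that of the compound-made groups, but CXCR4 and FOXA1 were at 0. CER1 made up most of the gap between AA and BRD endoderm, as given below. This sum therefore does not rank the groups by how far they are endoderm.

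The promoters of 3 members are printed because WNT3, ROR2 and VANGL1 were among the members that were higher at 24 h than at 6 h with CHIR and with AA+CHIR. Each is the 250 bases upstream of a RefSeq transcription start on GRCh38.p14, read 5′ to 3′ on the gene's strand. WNT3 is at chr17:46818693-46818942 on the minus strand, ROR2 at chr9:91950229-91950478 on the minus strand and VANGL1 at chr1:115642379-115642628 on the plus strand. Capitals mark the match to a T-box motif, AGGTGTGA, which lies on the minus strand of the VANGL1 window at bases -242 to -235 from the start. RefSeq holds another VANGL1 window, at chr1:115641720-115641969, which has no match and is not printed. The printed VANGL1 window lies inside the annotated gene, which starts at base 115641953.
WNT3: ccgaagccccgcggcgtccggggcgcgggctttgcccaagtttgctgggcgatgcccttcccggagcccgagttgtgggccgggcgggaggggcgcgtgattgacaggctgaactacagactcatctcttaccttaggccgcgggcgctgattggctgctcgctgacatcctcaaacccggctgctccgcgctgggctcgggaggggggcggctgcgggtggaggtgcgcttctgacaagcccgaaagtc
ROR2: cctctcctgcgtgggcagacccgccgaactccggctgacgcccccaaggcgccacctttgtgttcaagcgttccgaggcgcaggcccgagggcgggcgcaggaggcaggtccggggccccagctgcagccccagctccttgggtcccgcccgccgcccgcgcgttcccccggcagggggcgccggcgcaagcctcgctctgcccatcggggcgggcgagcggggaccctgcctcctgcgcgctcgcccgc
VANGL1: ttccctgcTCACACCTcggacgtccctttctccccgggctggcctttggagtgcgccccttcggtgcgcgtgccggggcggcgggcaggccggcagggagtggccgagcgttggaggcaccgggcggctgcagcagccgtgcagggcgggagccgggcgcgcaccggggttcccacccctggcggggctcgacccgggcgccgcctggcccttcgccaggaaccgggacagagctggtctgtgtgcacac

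All 3 windows were rich in G and C, at 68.8% for WNT3, 78.0% for ROR2 and 75.6% for VANGL1, with 26, 32 and 28 CpG pairs. RefSeq held 37 such windows for 32 members, with a median of 72.4% G and C and 26 CpG pairs, against 58.0% and 11 over all 35116 windows of 27305 genes. Searches for 3 motifs covered both strands. The TCF/LEF motif CTTTGAT was in 0 of the 37 windows and in 2.26% of all windows, the T-box motif AGGTGTGA in 1 of the 37 and in 0.786% of all, and the FOXH1 motif AATNCACA in 0 of the 37 and in 2.89% of all. No match says only that these letters are not in these 250 bases. WNT3 (GRCh38, chr17:46762506-46833154, minus strand) and WNT9B lie 46 bases apart on chromosome 17 on opposite strands by the ends of their annotated genes. The WNT3 window printed above belongs to a start within that span and not to the end next to WNT9B, whose own RefSeq window is at chr17:46851333-46851582. WNT9A and WNT3A lie 59152 bases apart on chromosome 1.

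To set levels of different genes side by side, CPM were divided by the length of each gene's merged exons. Among the ligands, WNT7B led in untreated cells at 6 h with 1.12 CPM per kb, 35.2% of the ligand total. No single-cell library was of untreated cells. In AA endoderm, WNT7B was at 2.29 and 6.61 CPM in bulk but at 0.118 CPM in the endoderm single-cell library. The source of this gap was not tested, so the rank of WNT7B holds for the bulk counts only. WNT5B led with CHIR at 6 h with 3.66 CPM per kb, 51.1% of the total. WNT3 led at 24 h with CHIR (13.3 CPM per kb, 61.7%) and with AA+CHIR (25.1 CPM per kb, 67.9%), and it still led in AA endoderm at 72 h (3.85 CPM per kb, 49.8%), where WNT4 came next (1.63 CPM per kb, 21.1%). Among the Frizzled receptors, FZD7 led in every group of 6 h and 24 h, with 34.5 CPM per kb and 56.2% of the Frizzled total with CHIR at 6 h and 63.6 CPM per kb and 66.7% with AA+CHIR at 24 h. FZD5 led at 72 h, with 232 CPM per kb and 56.9% of the total in AA endoderm, ahead of FZD8 (84.7 CPM per kb) and FZD7 (56.9 CPM per kb). VANGL2 led the polarity genes in every group, with 9.18 CPM per kb with CHIR at 6 h and 27.7 CPM per kb in AA endoderm. These shares are descriptions of 2 libraries a group, with no test.

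CHIR for 6 h raised the ligands WNT3 and WNT5B and the receptor FZD10 and lowered SHISA2. Of 30 members tested against untreated cells, 3 were higher and 1 was lower, where 2.96% of all 14874 genes tested were called, 1.69% higher and 1.28% lower. WNT5B, a ligand that mostly signals without beta-catenin, was at 3.93 and 2.87 CPM untreated and at 14.5 and 17.0 CPM with CHIR (log2 change 2.20, SE 0.30, adjusted p = 0.000211). WNT3, a ligand needed for the primitive streak in the mouse, was at 0.939 and 0.556 CPM untreated and at 4.46 and 3.84 CPM with CHIR (log2 change 2.44, SE 0.52, adjusted p = 0.012). FZD10, a Frizzled receptor, was at 0.256 and 0.278 CPM untreated and at 3.96 and 2.21 CPM with CHIR (log2 change 3.47, SE 0.79, adjusted p = 0.0191). In each of these genes both CHIR libraries lay above both untreated ones. SHISA2 was at 35.6 and 35.9 CPM untreated and at 7.76 and 9.07 CPM with CHIR (log2 change -2.09, SE 0.28, adjusted p = 0.000154), with no overlap. Leaving out CHIR replicate 1 or untreated replicate 2 left 2 members called, WNT5B and SHISA2. Among receptors that were not called, FZD7 was at 121 and 112 CPM untreated and 132 and 134 CPM with CHIR, ROR1 at 132 and 124 CPM untreated and 138 and 133 CPM with CHIR, and LRP6 at 131 and 138 CPM untreated and 127 and 130 CPM with CHIR.

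Among other genes of the pathway, 6 of 12 beta-catenin targets rose with CHIR at 6 h and 0 fell, with a median log2 change of 1.15 over the 12 where the median over all genes was 0.00. SP5, a repressor that is a direct target, changed by 3.71 (SE 0.20, adjusted p = 5.74e-09) and AXIN2, a feedback inhibitor, by 1.36 (SE 0.12, adjusted p = 1.06e-06). LEF1 (1.72), SP8 (1.31), NKD1 (0.99) and CCND1 (0.70) also rose. RNF43, a ligase that removes Frizzled from the surface, rose by 2.75, and DACT1, a partner of Dishevelled counted with the polarity genes, by 2.54. Of 15 antagonists and co-receptor blockers 2 rose, DKK4 and APCDD1, and SFRP1 fell.

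Adding AA to CHIR lowered WNT5B, FZD7 and PRICKLE1 and raised FZD5 and VANGL1 at 6 h, and it raised WNT5A, WNT3, FZD7 and ROR2 and lowered FZD3 and ROR1 at 24 h. The calls of WNT5B and VANGL1 at 6 h and of WNT3, ROR2 and FZD3 at 24 h hung on single libraries, as given below. At 6 h, 2 of 30 members were higher and 3 lower with AA+CHIR than with CHIR, where 1.49% of all genes were called, 0.76% higher and 0.733% lower. Among ligands, WNT5B was at 14.5 and 17.0 CPM with CHIR and at 4.29 and 5.36 CPM with AA+CHIR (log2 change -1.70, SE 0.29, adjusted p = 0.00443). Among receptors, FZD7 was at 132 and 134 CPM with CHIR and at 50.9 and 69.4 CPM with AA+CHIR (log2 change -1.14, SE 0.12, adjusted p = 1.74e-05). FZD5 went the other way, from 34.6 and 38.3 CPM to 83.7 and 81.4 CPM (log2 change 1.18, SE 0.14, adjusted p = 0.000128). Of the polarity genes, PRICKLE1, a cytoplasmic core protein, was at 34.9 and 40.3 CPM with CHIR and at 8.88 and 6.93 CPM with AA+CHIR (log2 change -2.25, SE 0.16, adjusted p = 3.21e-07). VANGL1, a membrane core protein, was at 18.2 and 18.0 CPM with CHIR and at 29.6 and 39.5 CPM with AA+CHIR (log2 change 0.94, SE 0.20, adjusted p = 0.0202). The libraries of the 2 groups did not overlap in any of these 5 genes, which is no separate support for the calls. Without CHIR replicate 2 the count was 3. VANGL1 was not called without AA+CHIR replicate 2, CHIR replicate 1 or CHIR replicate 2 (adjusted p 0.167 to 0.176), nor WNT5B without AA+CHIR replicate 1 or CHIR replicate 2 (0.0685 and 0.0598) or in 1 fit over all 30 libraries (0.0735). WNT3 was at 4.46 and 3.84 CPM with CHIR and 10.5 and 10.2 CPM with AA+CHIR at 6 h, and was not called.

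At 24 h, 4 of 34 members were higher and 2 lower with AA+CHIR than with CHIR, where 2.86% of all 15586 genes were called, 1.24% higher and 1.62% lower. WNT5A, a ligand of ROR2 that mostly signals without beta-catenin, was at 6.07 and 1.85 CPM with CHIR and at 48.0 and 46.7 CPM with AA+CHIR (log2 change 3.57, SE 0.44, adjusted p = 0.000151). WNT3 was at 65.7 and 49.6 CPM with CHIR and at 106 and 112 CPM with AA+CHIR (log2 change 0.92, SE 0.17, adjusted p = 0.00584). Both AA+CHIR libraries lay above both CHIR libraries for these ligands. FZD7 was at 110.5 and 119 CPM with CHIR and at 232 and 258 CPM with AA+CHIR (log2 change 1.09, SE 0.15, adjusted p = 0.000347), and FZD3 fell from 92.7 and 101 CPM to 57.4 and 63.0 CPM (log2 change -0.68, SE 0.13, adjusted p = 0.00787). The alternative receptors parted. ROR1 fell from 54.7 and 50.2 CPM to 17.3 and 14.5 CPM (log2 change -1.72, SE 0.19, adjusted p = 5.61e-05), while ROR2 was at 107 and 103 CPM with CHIR and at 147 and 178 CPM with AA+CHIR (log2 change 0.64, SE 0.16, adjusted p = 0.0468). The ROR2 call was lost without any 1 of the 4 libraries (adjusted p 0.0725 to 0.394) and with the replicate number as a block (adjusted p = 0.057), and without CHIR replicate 2 the count of members was 3. WNT3 was not called without AA+CHIR replicate 2 or CHIR replicate 2 (adjusted p 0.0746 and 0.115), nor FZD3 without AA+CHIR replicate 1 or CHIR replicate 2 (0.0938 and 0.0967). The polarity genes PRICKLE1 (14.5 and 5.05 CPM with CHIR, 19.2 and 26.3 CPM with AA+CHIR) and VANGL1 (72.3 and 83.5 CPM, 95.4 and 103 CPM) were not called at 24 h.

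The summed level of 4 mesoderm markers was 119.1 to 133.2 CPM with AA+CHIR and 4.4 to 4.9 CPM with CHIR at 24 h, that of 5 primitive streak markers 2325.9 to 2426.4 and 1139.9 to 1198.2 CPM, and that of 5 definitive endoderm markers 1171.2 to 1330.4 and 142.2 to 181.0 CPM. Of the endoderm markers CXCR4 and FOXA1 were at 0 with AA+CHIR and CXCR4 and SOX17 with CHIR, and HAND1 and MESP1 of the mesoderm markers were at 0 with CHIR. The part of these cell states in the changes of WNT5A, WNT3, FZD7, FZD3, ROR1 and ROR2 was not tested. Among other pathway genes at 24 h, 4 of 15 antagonists rose with AA and 1 fell: DKK4 (log2 change 4.44), CER1 (3.74), DKK1 (3.50) and DKK3 (1.45) rose and SFRP1 fell by 0.92. RSPO3, a secreted enhancer of Wnt signals, rose from 1.22 to 49.6 CPM (log2 change 5.33, SE 0.83, adjusted p = 0.00117). TCF7 was the 1 of 12 beta-catenin targets that rose, by 1.03, and the factors TCF7L1 and TCF7L2 fell.

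**Figure D1:**
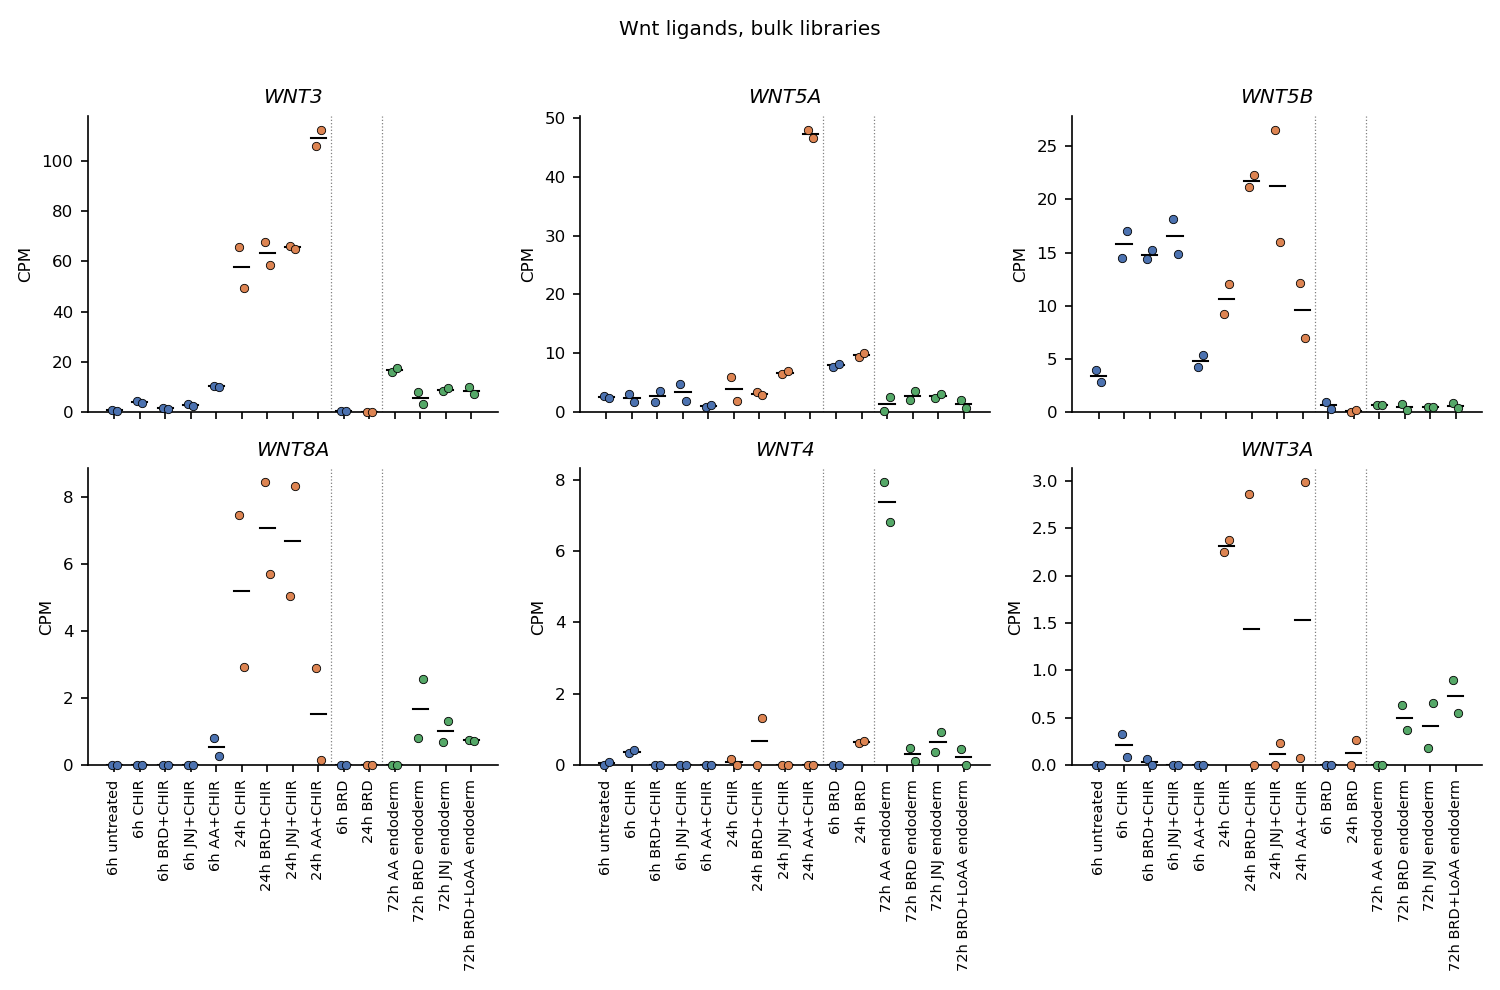
Level in CPM (linear axis from 0) of 6 Wnt ligands in each of the 30 bulk libraries, with points for libraries and a bar for the mean of the 2 libraries of a group; blue is 6 h, orange 24 h and green 72 h, and dotted lines set off BRD without CHIR. WNT3 reached 106 and 112 CPM and WNT5A 48.0 and 46.7 CPM with AA+CHIR at 24 h, and WNT4 reached 7.93 and 6.82 CPM in AA endoderm.

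The effect of AA differed between 24 h and 6 h for 6 of 33 members by a test of the difference itself, 3 with a higher and 3 with a lower effect at 24 h, where 1.9% of all 15717 genes were called, 0.617% higher and 1.28% lower. Of these 6, WNT5A had the widest difference, 4.78 on the log2 scale (SE 0.74, adjusted p = 0.000658). PRICKLE1 followed with 3.46 (SE 0.44, adjusted p = 9.13e-05) and FZD7 with 2.24 (SE 0.20, adjusted p = 5.4e-07). FZD7 and PRICKLE1 were below CHIR with AA at 6 h and above it in both libraries at 24 h. The effect was lower at 24 h for ROR1 (-1.51, SE 0.19, adjusted p = 8.09e-05), FZD5 (-1.06, SE 0.20, adjusted p = 0.00442) and FZD3 (-0.75, SE 0.16, adjusted p = 0.015). The FZD3 difference was not called without AA+CHIR replicate 2 or CHIR replicate 1 of 6 h, or without AA+CHIR replicate 1 or CHIR replicate 2 of 24 h (adjusted p 0.0538 to 0.128). ROR1 was at 138 and 133 CPM with CHIR and 109.5 and 125 CPM with AA+CHIR at 6 h, and FZD5 at 24 h was at 76.5 and 70.6 CPM with CHIR and 81.2 and 77.8 CPM with AA+CHIR. WNT2B (2.36, SE 0.83, adjusted p = 0.179) and FZD8 (2.24, SE 0.60, adjusted p = 0.0609) had differences as large as that of FZD7 with wider errors, and were not called.

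**Figure D2:**
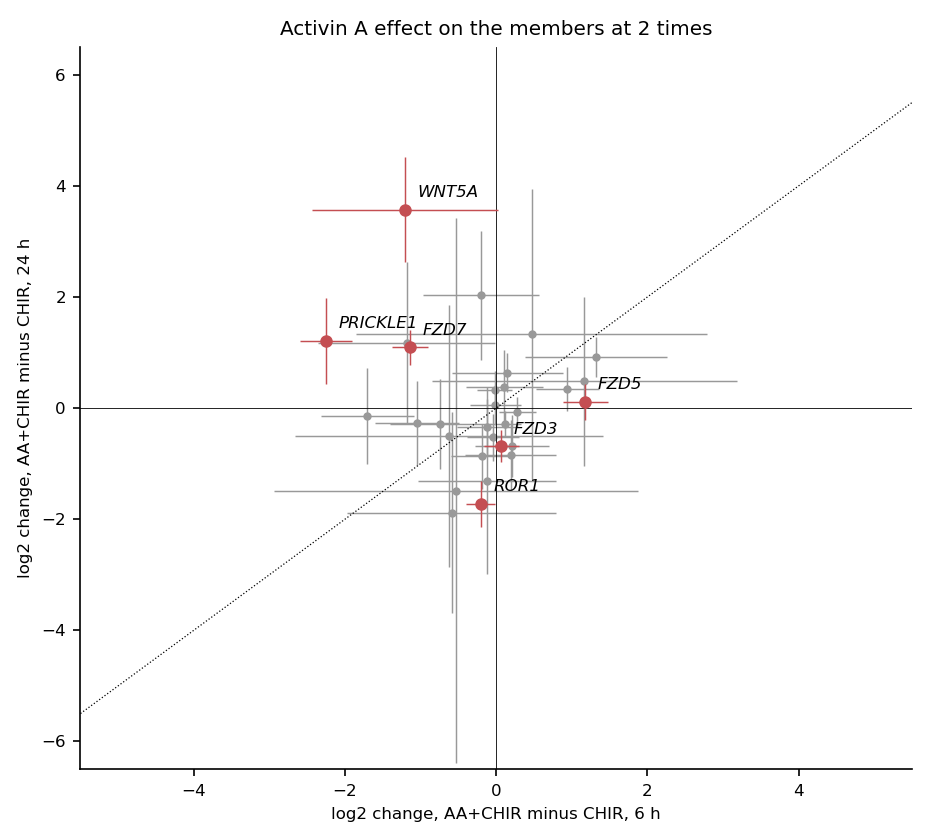
Log2 change of AA+CHIR against CHIR at 24 h plotted against that at 6 h for the 30 members tested at both times, with 95% intervals; the dotted line marks equal changes. The 6 members in red had a different effect at the 2 times, with FZD7, PRICKLE1 and WNT5A above the line and FZD3, FZD5 and ROR1 below it.

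With CHIR, 14 of 33 members were higher and 3 lower at 24 h than at 6 h, and with AA+CHIR 14 were higher and 2 lower. With CHIR 37.9% of all genes were called, 18.6% higher and 19.3% lower, and with AA+CHIR 42.2%, 20.8% higher and 21.4% lower, so that the number of members called in either direction is read against a large background. The median log2 change of the members was 0.70 with CHIR and 1.01 with AA+CHIR, where that of all genes was -0.02 and -0.01. Higher in both were WNT3, FZD1, LRP5, ROR2, RYK, VANGL1 and VANGL2, and ROR1 was lower in both. FZD1 was not called without replicate 1 of 6 h or replicate 2 of 24 h with CHIR, or without either 6 h library or replicate 2 of 24 h with AA+CHIR (adjusted p 0.054 to 0.183). WNT3 rose from 4.46 and 3.84 CPM to 65.7 and 49.6 CPM with CHIR (log2 change 3.81, SE 0.22, adjusted p = 2.03e-11) and from 10.5 and 10.2 CPM to 106 and 112 CPM with AA+CHIR (log2 change 3.42, SE 0.21, adjusted p = 4.09e-11). WNT8A, a ligand of the posterior streak, held 0 counts with CHIR at 6 h and 311 at 24 h (7.47 and 2.92 CPM), at least 42.9-fold higher against a floor of 3 counts over the group. Both ligands were thus higher in both CHIR libraries of 24 h than in those of 6 h. WNT5A rose with AA+CHIR from 0.919 and 1.20 CPM to 48.0 and 46.7 CPM (log2 change 5.49, SE 0.58, adjusted p = 1.28e-07).

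The alternative receptors crossed over. ROR2 rose from 7.02 and 7.93 CPM to 107 and 103 CPM with CHIR (log2 change 3.82, SE 0.24, adjusted p = 9.06e-11) and from 9.39 and 7.21 CPM to 147 and 178 CPM with AA+CHIR (log2 change 4.32, SE 0.25, adjusted p = 1.68e-11). ROR1 fell by 1.35 with CHIR (SE 0.13, adjusted p = 7.35e-08) and by 2.86 with AA+CHIR (SE 0.14, adjusted p = 1.94e-12). Per kb of exon, ROR1 held 71.4% of the total of ROR1, ROR2 and RYK in untreated cells at 6 h and 5.07% with AA+CHIR at 24 h, and ROR2 60.0% with AA+CHIR at 24 h. RYK, a receptor with an inactive kinase, rose from 64.5 and 68.2 CPM to 135 and 141 CPM with CHIR (log2 change 1.07, SE 0.12, adjusted p = 3.63e-07). The co-receptor LRP5 rose from 30.8 and 30.3 CPM to 68.5 and 58.1 CPM with CHIR (log2 change 1.07, SE 0.16, adjusted p = 2.11e-05). FZD7 rose from 50.9 and 69.4 CPM to 232 and 258 CPM with AA+CHIR (log2 change 2.05, SE 0.14, adjusted p = 3.38e-10), and with CHIR it was at 132 and 134 CPM at 6 h and 110.5 and 119 CPM at 24 h and was not called.

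Of the polarity genes, VANGL1 rose from 18.2 and 18.0 CPM to 72.3 and 83.5 CPM with CHIR (log2 change 2.13, SE 0.21, adjusted p = 5.95e-08) and by 1.54 with AA+CHIR (SE 0.20, adjusted p = 2.64e-06). PRICKLE1 fell with CHIR from 34.9 and 40.3 CPM to 14.5 and 5.05 CPM (log2 change -1.92, SE 0.31, adjusted p = 3.49e-05) and rose with AA+CHIR from 8.88 and 6.93 CPM to 19.2 and 26.3 CPM (log2 change 1.55, SE 0.32, adjusted p = 0.000535). VANGL2 rose in both, by 0.65 and 1.01, and CELSR1 rose with CHIR by 1.32. Beside these genes, WLS, the carrier that brings Wnt proteins to the surface, rose from 3.61 to 60.7 CPM with CHIR (log2 change 4.08, SE 0.26, adjusted p = 7.93e-11) and from 5.16 to 87.3 CPM with AA+CHIR (log2 change 4.11, SE 0.25, adjusted p = 5.26e-11). Of 16 polarity partners 6 rose and 3 fell with CHIR and 7 rose and 4 fell with AA+CHIR, where 37.9% and 42.2% of all genes were called. PTK7, a co-receptor of the polarity pathway, rose in both, by 1.29 and 1.44.

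BRD without CHIR is the 1 treatment with both times in a single number series. Of 33 members 1 was higher and 5 lower at 24 h than at 6 h, where 12.9% of all genes were called, 3.91% higher and 9.01% lower. PRICKLE1 rose from 36.4 and 37.7 CPM to 71.8 and 84.4 CPM (log2 change 1.06, SE 0.30, adjusted p = 0.019). FZD7 fell from 115 and 121 CPM to 55.3 and 69.5 CPM (log2 change -0.92, SE 0.14, adjusted p = 0.000102), and ROR1 from 183 and 177 CPM to 98.3 and 109 CPM (log2 change -0.81, SE 0.13, adjusted p = 0.000207). SHISA2 fell from 64.5 and 58.1 CPM to 11.6 and 12.5 CPM (log2 change -2.36, SE 0.34, adjusted p = 5.4e-05), LRP5 fell by 0.59, and WNT3 fell by 2.48 but from under 1 CPM. ROR2 was at 2.65 and 4.64 CPM at 6 h and 2.91 and 4.57 CPM at 24 h, and VANGL1 at 17.7 and 18.4 CPM and 13.3 and 15.6 CPM, and neither was called. Without BRD replicate 1 of 6 h the count of members was 3. PRICKLE1 was not called without either 6 h library or replicate 2 of 24 h (adjusted p 0.108 to 0.138), nor LRP5 without either 6 h library or replicate 1 of 24 h (0.0603 to 0.198).

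**Figure D3:**
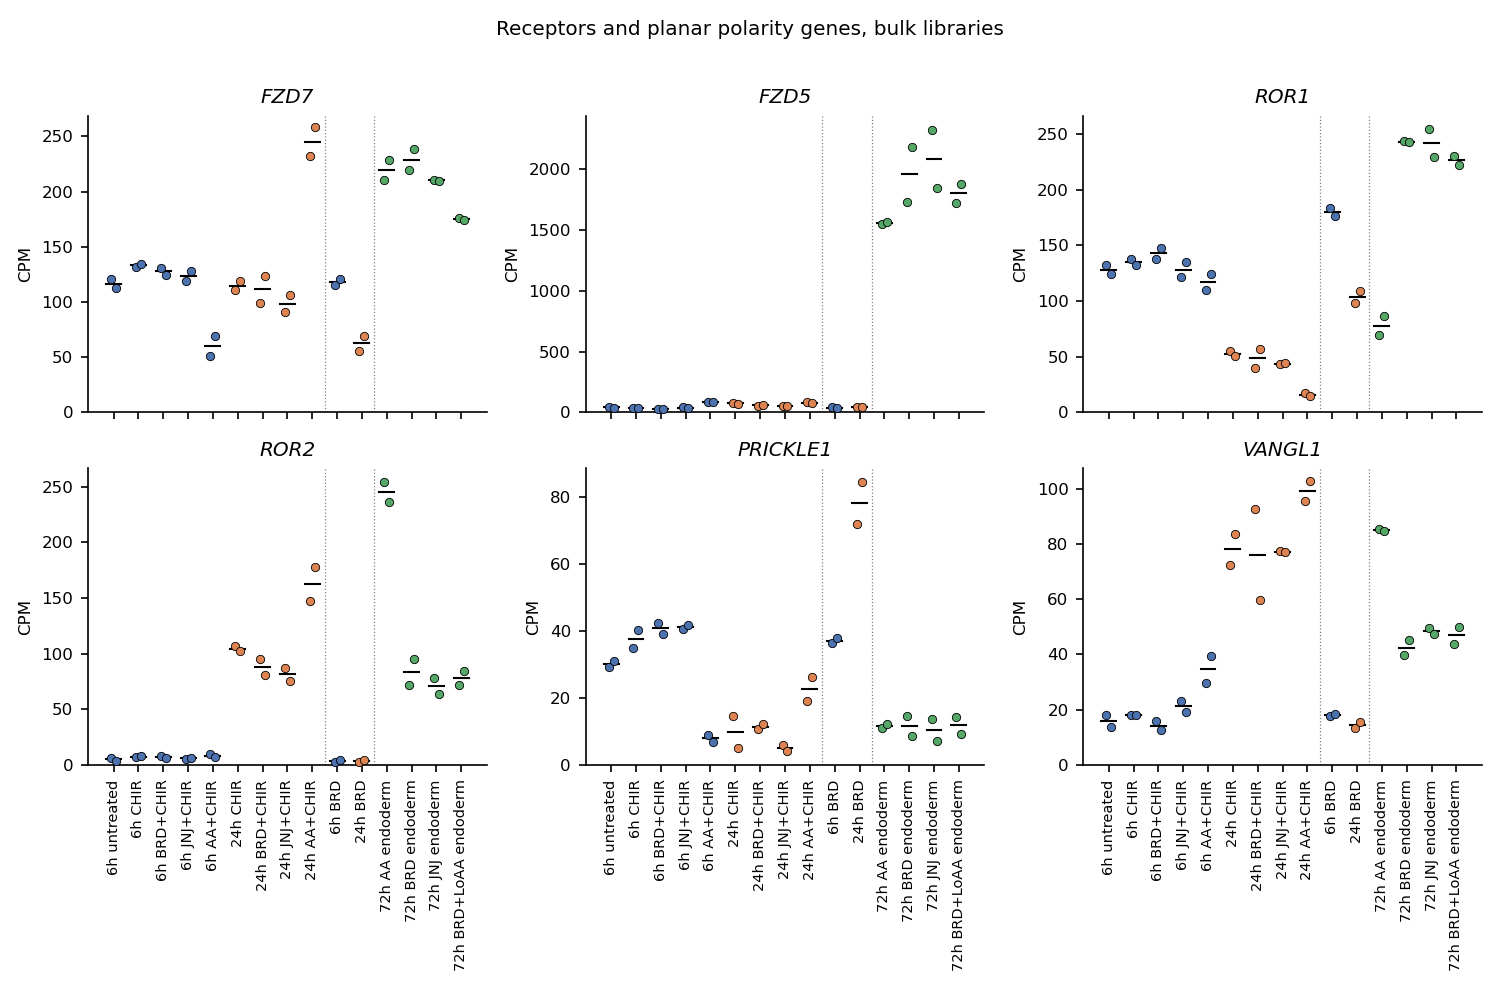
Level in CPM (linear axis from 0) of 4 receptors and 2 planar polarity genes in each of the 30 bulk libraries, drawn as for the ligands. FZD5 lay at 1547 CPM or more in every 72 h library, ROR2 rose from 7.02 and 7.93 CPM to 107 and 103 CPM between 6 h and 24 h with CHIR, and ROR1 lay at 17.3 and 14.5 CPM with AA+CHIR at 24 h.

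Whether BRD or JNJ moved these genes in the first day was asked by setting each with CHIR against CHIR alone. At 6 h, 0 of 30 members were called for BRD+CHIR (0% of all genes), 0 for JNJ+CHIR (0.0202% of all genes) and 0 between BRD+CHIR and JNJ+CHIR (0.0202%). At 24 h, 0 of 34 members were called for BRD+CHIR (0% of all genes), 0 for JNJ+CHIR (0.154%) and 0 between the compounds (0.18%). DESeq2 also called 0 members in each. At an unadjusted p under 0.05 edgeR gave 2, 0 and 2 members of the 30 at 6 h and 4, 8 and 6 of the 34 at 24 h. Over all genes, that threshold gave 452, 703 and 815 of 14874 at 6 h and 738, 1382 and 1281 of 15586 at 24 h. A p that misses the threshold does not show that the compounds left a gene as it was. For WNT3 at 24 h the log2 change was 0.13 for BRD (95% interval -0.23 to 0.50) and 0.18 for JNJ (-0.18 to 0.55), and the libraries were at 67.6 and 58.7 CPM with BRD+CHIR and at 66.2 and 64.8 CPM with JNJ+CHIR. For WNT5B at 24 h it was 1.03 for BRD (0.16 to 1.90) and 1.00 for JNJ (0.13 to 1.87), with 21.1 and 22.3 CPM and 26.5 and 16.0 CPM against 9.20 and 12.0 CPM with CHIR. Of the pathway genes at 24 h, the antagonists CER1 (-1.64), DKK1 (-0.91) and DKK4 (-1.98) fell with JNJ+CHIR against CHIR, and the same 3 were higher with BRD+CHIR than with JNJ+CHIR, by 1.02, 1.01 and 2.19. With 1 fit over all 30 libraries 2 members were called for JNJ+CHIR and 1 between the compounds at 24 h.

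Endoderm made with BRD, JNJ or BRD+LoAA carried more ROR1, FZD4 and SHISA2 and less ROR2, VANGL2 and WNT4 than AA endoderm at 72 h. The WNT4 calls were lost in 1 fit over all 30 libraries, as given below. Of 29 members, 8 were higher and 7 lower in BRD endoderm, where 21.3% of all 13889 genes were called, 9.71% higher and 11.6% lower. In JNJ endoderm 8 were higher and 5 lower (18.5% of all genes, 8.57% higher and 9.92% lower), and in BRD+LoAA endoderm 8 were higher and 5 lower (19.4%, 8.86% higher and 10.5% lower). The 3 comparisons share the AA libraries and are not independent. Called higher in all 3 were FZD3, FZD4, LRP6, ROR1, PRICKLE2, CELSR1, CELSR2 and SHISA2. Called lower in all 3 were WNT4, FZD8, ROR2, VANGL1 and VANGL2, and WNT3 and RYK were called lower in BRD endoderm. In each call the libraries of the 2 groups did not overlap, which adds nothing to the call itself. Without AA replicate 2 the count in JNJ endoderm was 7, and without JNJ replicate 1 it was 8. In BRD endoderm CELSR2 and LRP6 were not called without AA replicate 1 (adjusted p 0.0602 and 0.0626), nor RYK without any 1 of the 4 libraries (0.0896 to 0.191). In JNJ endoderm CELSR2, LRP6 and FZD3 were not called without either AA library or JNJ replicate 1 (0.0501 to 0.248), nor FZD8 without AA replicate 2 (0.0541). PRICKLE2 in JNJ endoderm was not called without AA replicate 2 or either JNJ library (0.111 to 0.251), and its call was also lost with DESeq2 and in 1 fit over all 30 libraries. In BRD+LoAA endoderm CELSR2 and LRP6 were not called without any 1 of the 4 libraries (0.071 to 0.152).

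Among ligands at 72 h, WNT4 was at 7.93 and 6.82 CPM in AA endoderm, 0.475 and 0.122 CPM in BRD, 0.349 and 0.911 CPM in JNJ and 0.451 and 0 CPM in BRD+LoAA endoderm. Its log2 change was -4.63 in BRD (SE 0.97, adjusted p = 0.00414), -3.48 in JNJ (SE 0.87, adjusted p = 0.0138) and -4.83 in BRD+LoAA endoderm (SE 1.00, adjusted p = 0.00471). In 1 fit over all 30 libraries these WNT4 calls were lost (adjusted p 0.117 to 0.252). They were also lost without AA replicate 1 in BRD and in BRD+LoAA endoderm (0.0573 and 0.0586) and without any 1 of the 4 libraries in JNJ endoderm (0.0596 to 0.13). WNT3 was at 15.9 and 17.5 CPM in AA, 8.07 and 3.41 CPM in BRD, 8.37 and 9.63 CPM in JNJ and 10.1 and 7.09 CPM in BRD+LoAA endoderm, and the call in BRD endoderm had a log2 change of -1.57 (SE 0.38, adjusted p = 0.0112) and was lost without either AA library or BRD replicate 2 (0.057 to 0.074). All compound-made libraries lay below both AA libraries for these 2 ligands. WNT8A, too low to be tested at 72 h, held 0 counts in both AA libraries and was at 0.791 and 2.56 CPM in BRD, 0.698 and 1.30 CPM in JNJ and 0.752 and 0.727 CPM in BRD+LoAA endoderm.

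Among receptors, FZD4 was at 17.2 and 20.7 CPM in AA, 111 and 118 CPM in BRD, 115 and 114 CPM in JNJ and 133 and 123 CPM in BRD+LoAA endoderm. Its log2 change was 2.60 in BRD endoderm (SE 0.15, adjusted p = 1.44e-07). FZD8 went the other way, at 318 and 365 CPM in AA, 182 and 195 CPM in BRD, 207 and 188 CPM in JNJ and 142 and 195 CPM in BRD+LoAA endoderm (log2 change in BRD -0.87, SE 0.16, adjusted p = 0.00165). The most abundant Frizzled, FZD5, was at 1547 and 1564 CPM in AA, 1734 and 2185 CPM in BRD and 2326 and 1846 CPM in JNJ endoderm and was not called. ROR1 and ROR2 moved in opposite directions. ROR1 was at 69.3 and 86.3 CPM in AA endoderm and at 244 and 243 CPM in BRD, 255 and 229.8 CPM in JNJ and 231 and 223 CPM in BRD+LoAA endoderm (log2 change in BRD 1.64, SE 0.14, adjusted p = 4.7e-06). ROR2 was at 254 and 236 CPM in AA and at 71.7 and 95.6 CPM in BRD, 78.5 and 64.0 CPM in JNJ and 71.7 and 84.3 CPM in BRD+LoAA endoderm (log2 change in BRD -1.56, SE 0.16, adjusted p = 2.39e-05). Per kb of exon, ROR2 held 61.6% of the total of ROR1, ROR2 and RYK in AA endoderm, and ROR1 57.1 to 60.6% in the 3 compound-made groups.

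The polarity genes also split. VANGL2 was at 153 and 143 CPM in AA, 55.5 and 71.0 CPM in BRD, 56.3 and 59.9 CPM in JNJ and 66.1 and 49.6 CPM in BRD+LoAA endoderm (log2 change in BRD -1.24, SE 0.16, adjusted p = 0.000135). VANGL1 was at 85.4 and 84.8 CPM in AA and at 39.7 and 45.2 CPM in BRD endoderm (log2 change -1.01, SE 0.14, adjusted p = 0.000269). CELSR1, a cadherin of the polarity core, was at 23.5 and 20.5 CPM in AA and at 47.2 and 53.0 CPM in BRD endoderm (log2 change 1.17, SE 0.18, adjusted p = 0.000505). CELSR2 rose by 0.97 and PRICKLE2 by 1.28 in BRD endoderm, so that both VANGL genes were lower while these 3 core genes were higher. SHISA2 was at 359.8 and 405 CPM in AA, 709.6 and 751 CPM in BRD, 778 and 804 CPM in JNJ and 635 and 732 CPM in BRD+LoAA endoderm (log2 change in BRD 0.92, SE 0.13, adjusted p = 0.000226). Between BRD and JNJ endoderm 0 of 29 members were called (0% of all genes), with 1 member, FZD9, and 390 genes at an unadjusted p under 0.05, and DESeq2 called 0 members. The 95% interval of BRD against JNJ was -0.28 to 0.28 on the log2 scale for FZD4, -0.28 to 0.30 for ROR1 and -0.12 to 0.60 for ROR2.

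**Figure D4:**
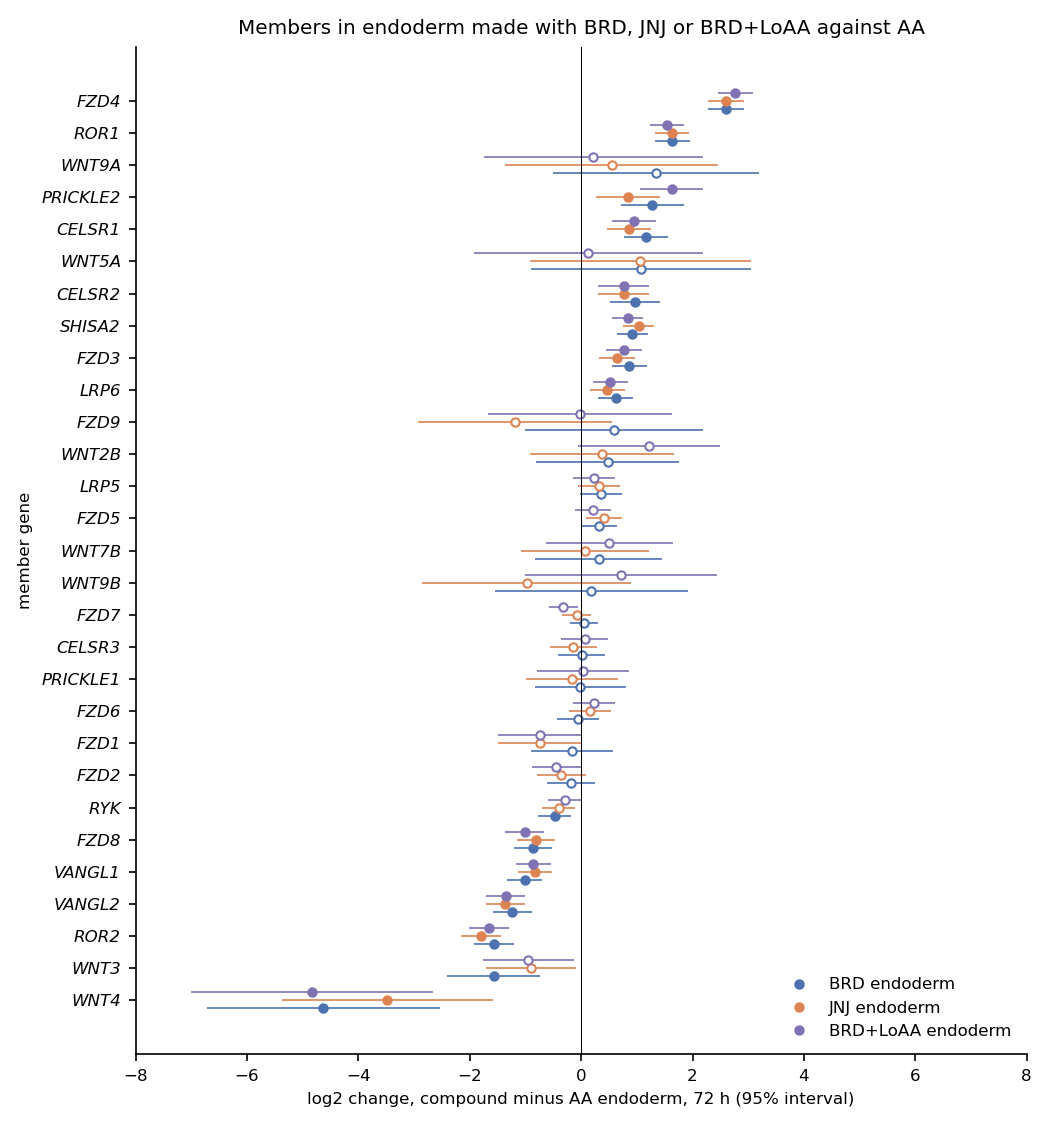
Log2 change of 29 members in BRD, JNJ and BRD+LoAA endoderm against AA endoderm at 72 h, with 95% intervals; filled points were called and open points were not. FZD4 lies farthest to the right among the called members, followed by ROR1 in BRD and JNJ endoderm and by PRICKLE2 (1.63) and ROR1 (1.55) in BRD+LoAA endoderm, WNT4, ROR2 and VANGL2 lie on the left, and the 3 comparisons share the AA libraries.

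Levels of cell type markers moved with these groups. The summed level of 5 amnion and trophectoderm markers was 34.3 to 40.1 CPM in AA endoderm, with HAND1 at 0, and 143.3 to 179.8 CPM in BRD, 146.0 to 171.3 CPM in JNJ and 163.9 to 186.2 CPM in BRD+LoAA endoderm, with none at 0. Of these markers GATA3 and ISL1 rose and GABRP fell in each compound-made group. That of 5 definitive endoderm markers was 4280.6 to 4928.7 CPM in AA endoderm and 478.1 to 559.7 CPM in BRD, 555.2 to 563.6 CPM in JNJ and 459.0 to 464.4 CPM in BRD+LoAA endoderm. CER1 made up most of that gap, at 4059 CPM in AA and 70.5 CPM in BRD endoderm, while SOX17 was at 391 and 238 CPM, and FOXA1 and FOXA2 were higher in each compound-made group than in AA endoderm. The part of these cell states in the members' changes was not tested. Among other pathway genes, LGR4, LGR5 and RNF43 rose in all 3 groups, by 1.78, 2.31 and 2.16 in BRD endoderm. SP5 (3.55), TNFRSF19 (4.21) and CCND1 (1.78) rose while AXIN2 (-1.11), BMP4 (-1.18) and SP8 (-1.30) fell in BRD endoderm, 3 up and 3 down of 10 beta-catenin targets tested. Of 15 polarity partners 0 rose, and 2 fell in BRD, 1 in JNJ and 1 in BRD+LoAA endoderm. In these comparisons 21.3%, 18.5% and 19.4% of all genes were called.

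From AA+CHIR at 24 h to sorted AA endoderm at 72 h, 10 of 35 members were higher and 6 lower, which at 45.7% is near the 44.8% called among all 16098 genes (21.5% higher and 23.4% lower). The time, the sort and the number series cannot be told apart here. SHISA2 went from 13.5 and 9.00 CPM to 359.8 and 405 CPM (log2 change 5.08, SE 0.25, adjusted p = 8.86e-15). FZD5 went from 81.2 and 77.8 CPM to 1547 and 1564 CPM (log2 change 4.29, SE 0.14, adjusted p = 1.02e-17), and FZD8 from 10.1 and 18.5 CPM to 318 and 365 CPM (log2 change 4.58, SE 0.24, adjusted p = 4e-14). The called member that rose most was the ligand WNT4, which had 0 counts at 24 h and 91 at 72 h and was at least 136-fold higher. SHISA2 and these 2 Frizzled receptors came next. Other called ligands fell. WNT3 went from 106 and 112 CPM to 15.9 and 17.5 CPM (log2 change -2.71, SE 0.26, adjusted p = 2.07e-09). WNT5A went from 48.0 and 46.7 CPM to 0.269 and 2.56 CPM (log2 change -5.21, SE 0.71, adjusted p = 8.52e-07), and WNT5B fell by 3.84. ROR1 rose from 17.3 and 14.5 CPM to 69.3 and 86.3 CPM (log2 change 2.28, SE 0.15, adjusted p = 1.05e-12) and ROR2 by 0.59, a call lost without AA+CHIR replicate 1 or AA endoderm replicate 1 (adjusted p 0.118 and 0.0807).

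Low ligands in bulk were WNT16 at no more than 0.872 CPM, WNT10B at no more than 1.90 CPM, WNT9A at no more than 2.56 CPM, WNT3A at no more than 2.99 CPM and WNT9B at no more than 5.32 CPM in any library. WNT3A was at 2.25 and 2.38 CPM with CHIR at 24 h but at 2.87 and 0 CPM with BRD+CHIR and at 0.0709 and 2.99 CPM with AA+CHIR. In the 24 h libraries of series 38, 112 to 298 genes per group were at 0 in 1 library and at 50 or more counts in the other, against 9 to 42 per group elsewhere, and WNT9A and WNT3A were among them. WNT7B lay between 0.851 and 8.96 CPM over the 30 libraries and was called in no comparison.

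The 3 single-cell libraries hold 36 h cells, endoderm and mesoderm by their labels. Each was 1 library, so that no test between them is possible, and intervals are exact Poisson 95% intervals that cover counting error only. After removing barcodes under 500 genes or above 10% mitochondrial UMIs, 4193 of 6244 barcodes were kept at 36 h, 4511 of 6321 in endoderm and 5632 of 6266 in mesoderm, with median depths of 21152, 7680 and 7873.5 UMIs, and no doublet caller was run. The libraries shared 50 to 56 barcodes pairwise. SOX17 was at 0 CPM at 36 h and in mesoderm and at 122 CPM in endoderm, and TBX6 was at 82.1 CPM in mesoderm and 7.58 CPM in endoderm. Of the same lists, FOXA1, FOXA2 and CER1 were also higher in endoderm, and MESP1, MSGN1 and HAND1 in mesoderm. CXCR4 parted less, at 142.9 CPM in endoderm and 63.9 CPM in mesoderm. The mesoderm marker PDGFRA was alike, at 19.7 CPM in endoderm and 18.9 CPM in mesoderm. CER1 was already at 139.1 CPM at 36 h. Of the 42 members 22 reached 1 CPM at 36 h, 23 in endoderm and 26 in mesoderm, and 12 did not in any library: WNT1, WNT2, WNT6, WNT7A, WNT7B, WNT8B, WNT9A, WNT9B, WNT10A, WNT11, WNT16 and FZD9. WNT1, WNT7A and WNT8B had 0 UMIs in all 3, where 3 UMIs would be 0.0389, 0.0888 and 0.0665 CPM.

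In mesoderm WNT5A, WNT5B and FZD10 were highest, and in endoderm FZD5, FZD7, FZD8, ROR2 and SHISA2. WNT5B was at 167.5 CPM (163.8 to 171.4) in mesoderm, 5.85 CPM (5.33 to 6.42) at 36 h and 0.770 CPM (0.503 to 1.13) in endoderm. WNT5A was at 47.5 CPM (45.5 to 49.6) in mesoderm, 1.09 CPM at 36 h and 0.740 CPM in endoderm. The bulk AA+CHIR libraries of 24 h were at 48.0 and 46.7 CPM for WNT5A, far above the 36 h cells labelled AA+CHIR followed by AA. Time and method both differ there, and the source of this gap was not tested. FZD10 was at 67.0 CPM (64.6 to 69.4) in mesoderm and 0.178 CPM (0.0652 to 0.387) in endoderm. These 3 genes were thus lowest or near lowest in endoderm. FZD5 was at 131.9 CPM (128.1 to 135.9) in endoderm and 0.554 CPM (0.359 to 0.818) in mesoderm, and FZD8 at 78.1 CPM (75.1 to 81.1) and 0.488 CPM (0.306 to 0.739). SHISA2 was at 239.1 CPM (233.9 to 244.4) in endoderm, 0.803 CPM at 36 h and 0.377 CPM (0.220 to 0.604) in mesoderm. FZD7 was at 103.4 CPM in endoderm, 23.7 CPM at 36 h and 7.54 CPM in mesoderm, and ROR2 at 80.6, 7.16 and 7.98 CPM.

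WNT3 was highest at 36 h, at 17.6 CPM (16.7 to 18.6), with 8.20 CPM (7.26 to 9.22) in endoderm and 2.53 CPM (2.09 to 3.04) in mesoderm. WNT4 was at 2.55 CPM (2.04 to 3.14) in endoderm, with 1 UMI at 36 h and 3 in mesoderm. WNT3A (4.28 CPM) and WNT8A (2.64 CPM) were highest in mesoderm. After thinning each cell to 2000 UMIs, SHISA2 had a UMI in 27.87% of endoderm cells (50.48% before thinning) and in 0.0542% of mesoderm cells, WNT5B in 28.74% of mesoderm cells (69.34%) and in 0.0271% of endoderm cells, and FZD5 in 20.14% of endoderm cells (42.19%) and in 0.0722% of mesoderm cells. In the other lineage the shares before thinning were 0.5764% for WNT5B in endoderm, and 0.4439% for FZD5 and 0.3018% for SHISA2 in mesoderm. The source of these low shares was not tested. FZD3 (32.5, 26.4 and 30.9 CPM) and RYK (19.0, 27.6 and 22.0 CPM) were at like levels in the 3 libraries.

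**Figure D5:**
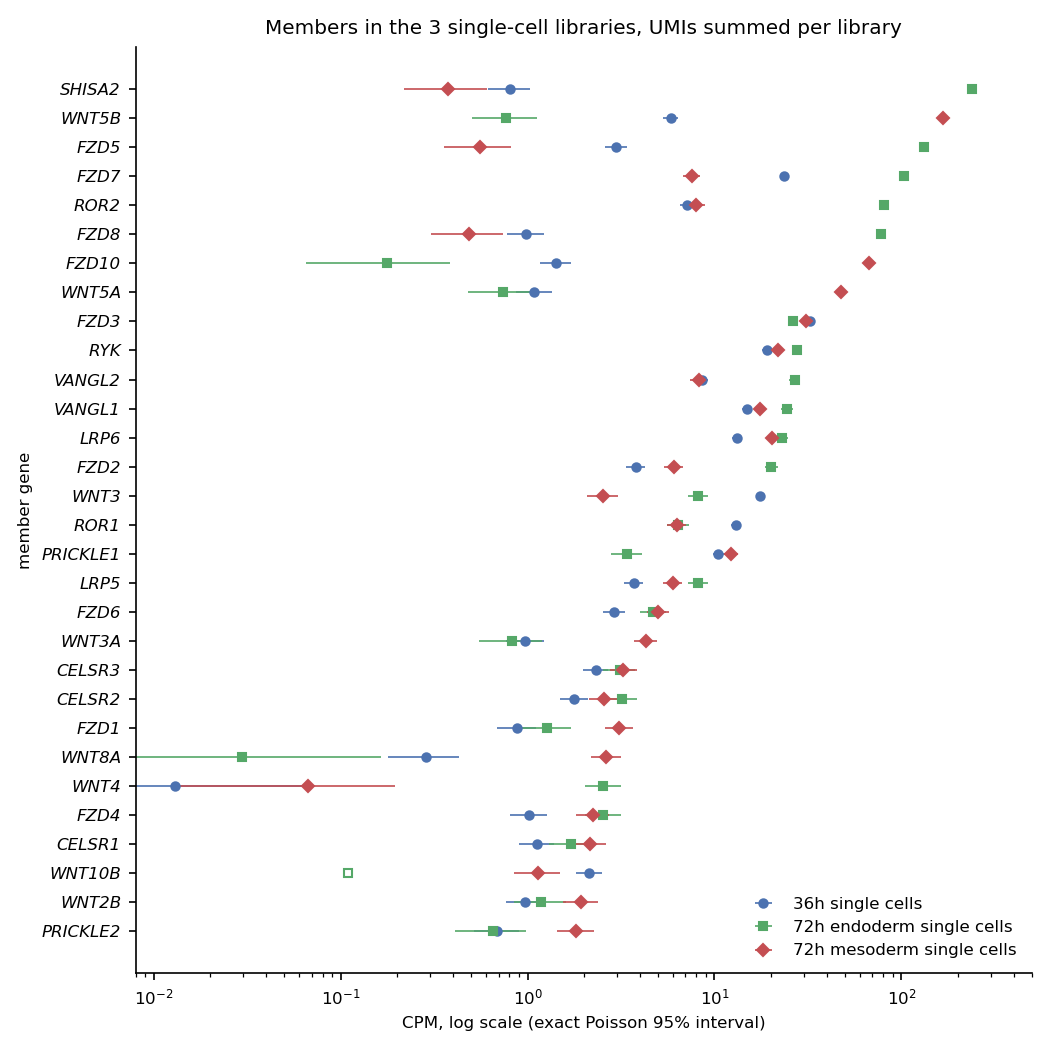
Level in CPM (log axis) of the 30 members that reached 1 CPM in a single-cell library, from UMIs summed over the cells of each library, with exact Poisson 95% intervals; open points mark the upper bound where no UMI was counted. WNT5B, FZD10 and WNT5A are highest in mesoderm and SHISA2, FZD5, FZD7, ROR2 and FZD8 in endoderm.

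Within the 36 h library, cells were classed by UMIs of the streak genes TBXT and EOMES and of SOX2 after thinning, which left 3416 cells. Of these, 39 had TBXT and EOMES, 375 EOMES without TBXT, 141 TBXT without EOMES and 284 SOX2 without either, and 2577 had none of the 3, so that the classes are ranges of detection and not cell types. Levels below are from all UMIs of those cells. Levels of the 2577 cells with none are not given. Over all kept cells of the library, WNT3 was at 17.6 CPM, FZD7 at 23.7 CPM, ROR2 at 7.16 CPM and PRICKLE1 at 10.5 CPM. By class, WNT3 was at 29.4 CPM (19.5 to 42.5) in cells with both streak genes and at 11.1 CPM (8.64 to 14.0) in SOX2 cells. It was at 21.4 CPM (18.4 to 24.6) in cells with EOMES alone and 26.7 CPM (21.4 to 32.9) in cells with TBXT alone. FZD7 was at 29.4 CPM (19.5 to 42.5) in cells with both, 38.9 CPM (34.9 to 43.2) with EOMES alone, 29.5 CPM (23.9 to 35.9) with TBXT alone and 19.2 CPM (15.9 to 22.9) in SOX2 cells, so that the interval of the cells with both overlapped that of the SOX2 cells. ROR2 was at 24.2 CPM (15.3 to 36.2), 12.7 CPM (10.5 to 15.3), 11.5 CPM (8.16 to 15.8) and 4.98 CPM (3.41 to 7.04) in the same order. PRICKLE1 was at 12.6 CPM (6.51 to 22.0), 9.45 CPM (7.53 to 11.7), 7.29 CPM (4.67 to 10.8) and, in SOX2 cells, 16.2 CPM (13.2 to 19.6), where the cells with both again overlapped the SOX2 cells. In the mesoderm library, with 5539 cells after thinning, WNT5A was at 68.6 CPM (59.4 to 78.8) in the 362 cells with TBXT and TBX6 and 43.8 CPM (40.7 to 47.0) in the 2153 cells with TBXT without TBX6, and FZD10 at 78.2 CPM (68.4 to 89.1) and 66.4 CPM (62.7 to 70.3). The 501 cells with TBX6 alone were like the first (68.8 and 79.5 CPM), and the 2523 cells with neither like the second (43.5 and 63.6 CPM). Cells of 1 library share their source, and these intervals cover counting error only.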

How the data were processed

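RNA of H1 cells was measured in 30 bulk libraries (15 groups of 2) and 3 single-cell libraries. The authors deposited a bulk table of expected counts, with 1 value for each gene and library, and single-cell matrices of whole UMI counts, the latter made with Cell Ranger 3.0.2 per the file headers. The submitters' processing notes list Salmon 1.4.0, limma 3.48.1, edgeR 3.34.0 and Seurat 4.0.2 without saying what each did, and how the bulk counts were made is otherwise not given in the sources used here. Per the labels' protocols bulk libraries were stranded total RNA. Groups came from the labels, and 0 columns were left unassigned.

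The deposited expected counts were rounded to whole numbers and fitted with edgeR 4.0.16 under R 4.3.3 (low genes removed by filterByExpr, TMM scaling, two-sided quasi-likelihood tests). There was 1 model for each time, 1 over 6 h and 24 h for changes with time, and 1 over all 30 libraries for 72 h against 24 h. Tests were adjusted by the Benjamini-Hochberg method over all genes tested. Residual degrees of freedom were 6, 5 and 4 for 6, 24 and 72 h. The self-test on simulated counts changed 200 genes. Depth was 4.57 to 49.5 M counts (M, mega) in bulk and 83.2, 35.39 and 45.81 M UMIs in the single-cell libraries. A fold against a group at 0 was computed against 3 counts over the group. Members named with full values were those called with a mean of at least 5 CPM in 1 of the groups, and a few were added after their values were seen. The members and gene lists were chosen with earlier results of these data known. BRD without CHIR was not tested against other treatments, since number series and treatment cannot be told apart. Single cells were summed per library with Python 3.11.15. Alternatives were DESeq2 1.42.0, RLE size factors, no filter on low counts, a replicate block, 1 fit over all libraries, each library left out, and, chosen after seeing the data, the fits without BRD alone. Replicate numbers do not pair the samples. Promoter sequences are from RefSeq (GRCh38.p14), and gene positions and exon lengths from GENCODE 29 (GRCh38).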

Additional observations from a re-analysis of the deposited data

Results flagged for a closer look

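The effect of Activin A over CHIR differed between 24 h and 6 h, by the test of the difference itself, for 6 members. WNT5A had a difference of 4.78 on the log2 scale, PRICKLE1 of 3.46 and FZD7 of 2.24, so that these 3 genes were relatively higher with Activin A at 24 h. ROR1 had a difference of -1.51, FZD5 of -1.06 and FZD3 of -0.75, so that these were relatively lower at 24 h. The 6 h and 24 h libraries are of 2 number series, and each effect was measured within 1 series. With AA+CHIR the summed mesoderm markers stood at 119.1 to 133.2 CPM at 24 h and 4.9 to 6.1 CPM at 6 h. Streak markers stood at 2325.9 to 2426.4 and 238.1 to 243.6 CPM, and endoderm markers at 1171.2 to 1330.4 and 44.3 to 45.0 CPM. With CHIR at 24 h and 6 h, mesoderm markers stood at 4.4 to 4.9 and 2.8 to 4.1 CPM. Streak markers were then at 1139.9 to 1198.2 and 54.8 to 57.8 CPM, and endoderm markers at 142.2 to 181.0 and 7.2 to 7.5 CPM. The part of these cell states in the 6 differences was not tested.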

How the results depend on the processing

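Single calls were followed only for members with a mean of at least 5 CPM in 1 of the groups. None of these changed direction under an alternative run on it. Members that were not called were not followed, nor were calls under that level. The latter were WNT3 and FZD10 for CHIR against untreated cells, WNT3 for BRD alone and WNT8A for 72 h against 24 h. The 113 calls followed held in 113 fits with RLE size factors, 113 without a filter on low counts and 111 with DESeq2. They held in 110 with the replicate block, and in 92 of the 98 compared with 1 fit over all 30 libraries. That single fit called 2 members for JNJ+CHIR against CHIR and 1 for BRD+CHIR against JNJ+CHIR at 24 h, where the separate fits called 0, and the cause was not tested. With the replicate block the count for AA+CHIR against CHIR at 24 h was 5 in place of 6. Same-numbered libraries did not deviate together (r of -0.064 to 0.049 at 6 h, -0.035 to 0.051 at 24 h and -0.198 to 0.209 at 72 h), so the numbers were not used as pairs. Leaving out each library in turn gave 2 to 4 members for CHIR against untreated, 3 to 4 for AA+CHIR against CHIR at 6 h and 3 to 6 at 24 h, 10 to 15 for BRD, 7 to 13 for JNJ and 10 to 11 for BRD+LoAA endoderm, and 3 to 6 for BRD alone. It gave 15 to 17 for CHIR and 12 to 14 for AA+CHIR over time, 5 to 7 for the difference in effect and 12 to 16 for 72 h against 24 h. Counts over all genes moved by more than 1.5 times for AA+CHIR against CHIR at 24 h (445, 203 to 1157) and 6 h (222, 65 to 295), the difference in effect (298, 161 to 550), CHIR against untreated (441, 186 to 582), BRD alone (2030, 1065 to 2332), BRD (2954, 1607 to 2955), JNJ (2568, 1420 to 2590) and BRD+LoAA endoderm (2693, 1348 to 2687), and BRD+CHIR against CHIR (0, 0 to 26), JNJ+CHIR against CHIR (24, 11 to 286) and BRD+CHIR against JNJ+CHIR (28, 9 to 256) at 24 h, the same 3 at 6 h (0, 0 to 4; 3, 0 to 9; 3, 0 to 12) and BRD against JNJ endoderm (0, 0 to 4). With 2 libraries a group, low ligands carry wide errors.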
